A study of Mus musculus with 12 samples.

Results

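Mouse airway organoids of passage P2+16 were compared with organoids of passage P2+14, as the sample titles give the passage. The members were chosen by that label alone: 8 of the 12 libraries of the series, 4 for each passage. P2+14 held the dishes numbered 1 and 3, and P2+16 those numbered 6 and 7. Each number stands for a pair of dishes of 45 organoids, in one of which 10 neighboring cells per organoid were ablated with a femtosecond laser (libraries 1, 3, 6 and 7), while the other was left untreated (libraries 1C, 3C, 6C and 7C). All dishes were harvested 4.5 h after the ablation. The organoids were grown from airway epithelial cells of adult C57BL/6J mice. The authors used mice of both sexes, but Y chromosome genes were at 0 in all 12 libraries, as given below. Every group, controls included, carried a lentiviral Histone2A-mCherry fusion gene driven by a p63 promoter. All groups were grown with supernatant of L-WRN cells, epidermal growth factor and the kinase inhibitor Y-27632. Before the ablation, this medium was exchanged for FluoroBrite DMEM, for which the paper names no supplements in the sequencing experiment. The dishes were used on culture day 14 (number 1) and 20 (number 3) at P2+14, and on day 18 (number 6) and 19 (number 7) at P2+16. Each passage thus rests on 2 numbers. By the culture days and dates in the titles, both numbers of a passage count back to the same start day. Start days differ between passages, so start day and passage cannot be told apart. No source used here says whether the numbers came from separate cultures or mice. The p-values therefore measure the spread between these dishes, which may be technical. Passage P2+15 (number 5 on day 15 and number 4 on day 14, 4 libraries) was used to see where it fell between the others. Libraries 6C and 7C, and 4C at P2+15, are given as untreated in the treatment field although the word ablation stands in their titles, and the treatment field was followed.

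The libraries fall into 2 runs of library numbers, called library sets here. Set 1 holds numbers 1, 3 and 5, and set 2 holds numbers 4, 6 and 7. P2+14 lies wholly in set 1 and P2+16 wholly in set 2, so passage and library set cannot be told apart in these 8 libraries. At P2+15, number 5 belongs to set 1 and number 4 to set 2.

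Airway organoids are kept by basal cells, the stem cells of the conducting airway, which express p63 (Trp63) and the keratins Krt5, Krt14 and Krt15. Basal cells give rise to secretory cells, which release antimicrobial proteins and mucins, and to multiciliated cells. Wnt and R-spondin, which L-WRN cells release together with noggin, sustain basal cells in culture. Mucins coat the luminal side, either secreted as gels or anchored in the membrane, as Muc1, Muc4 and Muc20 are.

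Expression was measured as normalized counts, that is read counts divided by a size factor of each library. Normalized counts summed to 27628170 to 28466011 per library at P2+14 and to 27297950 to 27994093 at P2+16. Whole reads, where they could be recovered, amounted to 27816061 to 28982636 in 3 P2+14 libraries and to 23631212 to 28759504 in the 4 P2+16 libraries. Basal markers were found in every library. Their 16 genes summed to 820297 to 851548 normalized counts at P2+14 and to 679596 to 768342 at P2+16. Sums were also high for club and secretory markers (129265 to 194403 normalized counts at P2+14, 153420 to 174832 at P2+16) and hillock and squamous genes (258537 to 280102 and 255143 to 292581). Of the 18 club and secretory genes, however, 8 had a mean under 10 normalized counts. Cyp2f2 alone had 26191 to 78596 at P2+14 and 41439 to 57749.8 at P2+16, and the luminal keratin gene Krt8 had means of 24247 and 25272. Some defining markers of mature cell types were near 0. Foxj1, the regulator of multiciliated cells, had a mean of 8.65 normalized counts at P2+14 and 2.92 to 17.8 at P2+16 (exact permutation p = 0.943, two-sided). Scgb1a1, the main product of club cells, had means of 4.68 and 1.77 (exact permutation p = 0.257). The secreted mucin gene Muc5ac had 0 to 3.00 at P2+14 and 1.98 to 3.89 at P2+16 (exact permutation p = 0.2). The alveolar gene Sftpc was listed at 0 in all 12 libraries.

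Promoters of 4 genes are shown here because the results turn on these genes and RefSeq lists them (build GRCm38.p6, 250 bases before to 50 after the start, 5′ to 3′ on the strand of the gene). Muc1, Muc4 and Pigr were higher at P2+16 and Fzd10 was lower. Capitals mark matches to 1 of 4 motifs searched on both strands, which were TATAAA, the AP-1 motif TGANTCA, the STAT motif TTCNNNGAA and the TCF and LEF motif CTTTGAT.
Muc1, chr3:89228806-89229105, plus strand: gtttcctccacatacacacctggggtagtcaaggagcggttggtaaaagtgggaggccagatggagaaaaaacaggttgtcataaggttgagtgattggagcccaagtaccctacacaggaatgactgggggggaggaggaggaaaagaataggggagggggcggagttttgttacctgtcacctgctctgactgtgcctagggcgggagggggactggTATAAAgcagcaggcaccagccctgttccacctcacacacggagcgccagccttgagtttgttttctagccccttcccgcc
Muc4, chr16:32735636-32735935, plus strand: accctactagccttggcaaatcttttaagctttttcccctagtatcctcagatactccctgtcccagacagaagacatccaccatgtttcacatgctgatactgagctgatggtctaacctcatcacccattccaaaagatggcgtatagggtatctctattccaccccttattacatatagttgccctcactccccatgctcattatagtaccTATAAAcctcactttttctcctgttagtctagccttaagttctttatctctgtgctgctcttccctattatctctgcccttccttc
Pigr, chr1:130826434-130826733, plus strand: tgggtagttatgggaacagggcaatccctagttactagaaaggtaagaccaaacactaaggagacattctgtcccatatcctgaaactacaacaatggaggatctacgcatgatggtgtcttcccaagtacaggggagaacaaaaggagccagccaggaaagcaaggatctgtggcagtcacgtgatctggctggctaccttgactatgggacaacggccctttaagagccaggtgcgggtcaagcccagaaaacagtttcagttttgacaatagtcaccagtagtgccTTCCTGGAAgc
Fzd10, chr5:128600856-128601155, plus strand: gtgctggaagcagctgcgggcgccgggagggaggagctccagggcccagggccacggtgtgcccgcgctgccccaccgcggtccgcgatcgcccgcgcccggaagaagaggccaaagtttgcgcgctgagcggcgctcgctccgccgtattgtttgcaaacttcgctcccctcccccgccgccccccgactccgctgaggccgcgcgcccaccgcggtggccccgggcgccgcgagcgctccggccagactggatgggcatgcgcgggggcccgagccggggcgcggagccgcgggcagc
The capitals in Muc1 and Muc4 are TATAAA, which lay from base -31 to -26 and from base -36 to -31 of the start. The capitals in Pigr match the STAT motif at bases 39 to 47 after the start. No match to any of the 4 motifs was in the Fzd10 window, of which 77.7% were G or C, against 55.7% for Muc1, 43.7% for Muc4 and 49.0% for Pigr. TATAAA was found in 13.6% of the 32851 promoters listed, the AP-1 motif in 7.81%, the STAT motif in 8.30% and the TCF and LEF motif in 3.73%. Only 186 of 278 genes called higher and 114 of 154 called lower had an entry, which is fewer than 80%, so a comparison of motif shares between them is void and was not made. Krt15 and Camk2n1 have no entry.

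Of 13804 genes tested, 432 (3.13%) differed between P2+16 and P2+14 at an adjusted p under 0.05 in limma with treatment as a covariate. Of these, 278 (2.01%) were higher and 154 (1.12%) lower at P2+16. In the same fit, 2964 of the 13804 genes had an unadjusted p under 0.05. The changes were mostly small, with a median log2 difference of 0.54 among genes called higher and of -0.42 among those called lower, and 76 of the 432 exceeded 2-fold. For 418 of the 432 genes all libraries of a passage lay on the same side of all libraries of the other. Over all genes tested this was so for 2031 (14.7%). Nearly all of these calls were lost when the dishes of a number were no longer treated as independent. With the number as a block, 1 gene passed (0.00724%), Camk2n1, an inhibitor of the calcium/calmodulin-dependent kinase CaMKII, and 1708 had an unadjusted p under 0.05. With the mean of both dishes as the unit, which leaves 2 values against 2, limma called 0 genes, 1432 had an unadjusted p under 0.05, and the lowest adjusted p was 0.212. The calls also rested on single libraries, as 1 gene was called without library 6, 6 without 6C, 4 without 7C, 47 without 7, 67 without 1C and 98 without 3C. Without library 1 or 3 the counts were 397 and 440. Adjusted p-values below are from limma with dishes as replicates, and the value with the number as a block stands beside them.

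**Figure D1:**
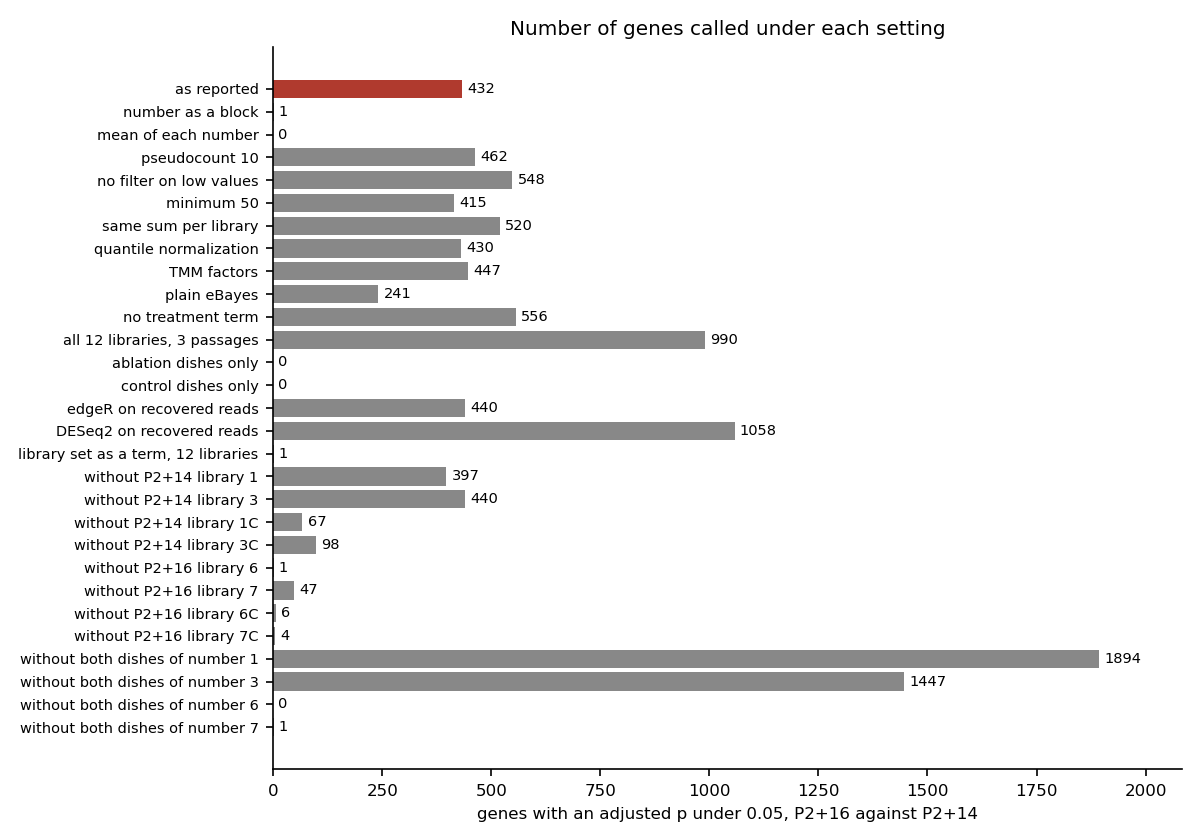
Number of genes (x axis) with an adjusted p under 0.05 between P2+16 and P2+14 in limma as reported (red bar, 432 genes) and under each other setting (grey bars, 1 per setting). Counts are 0 with the mean of each number, in ablation dishes only, in control dishes only and without both dishes of number 6, and highest (1894) without both dishes of number 1.

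The P2+15 libraries lay between the others for most of the called genes. For 357 of the 432 genes (82.6%) the mean of the 4 P2+15 libraries was between the means of P2+14 and P2+16, against 40.7% of all genes tested. These shares are given as a description. Number 5 alone, of the same library set as P2+14, was between for 74.1% of the called genes, and number 4, of the same set as P2+16, for 77.5%. Deviations were taken from each gene's own mean over the 8 P2+14 and P2+16 libraries. The genes called higher had a median deviation of -0.30 to -0.23 on the log2 scale at P2+14 and of 0.25 to 0.29 at P2+16. At P2+15 their medians were 0.02 (library 5) and -0.03 (5C) in set 1, and 0.08 in both libraries of set 2. The genes called lower mirrored this, with 0.17 to 0.25 at P2+14, -0.15 to -0.05 at P2+15 and -0.30 to -0.16 at P2+16. The medians of all P2+15 libraries were inside the range set by the other passages, which the choice of these genes makes likely. In both groups of genes set 2 was nearer to P2+16 than set 1.

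**Figure D2:**
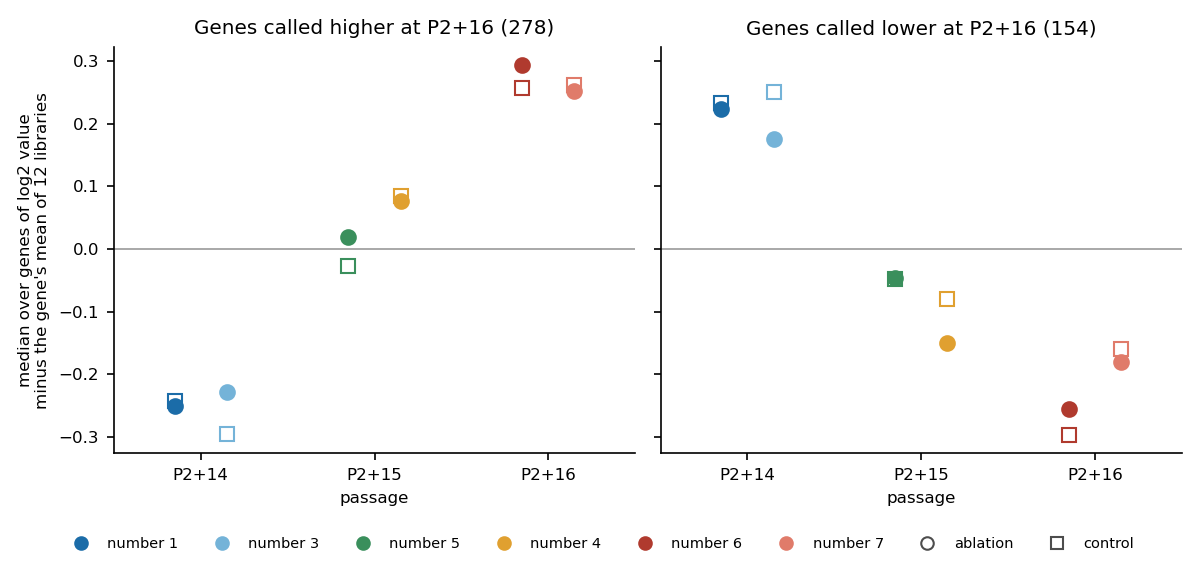
Median over the 278 genes called higher (left) and the 154 called lower (right) of the log2 value minus the gene's mean (y axis), by passage (x axis). The mean was taken over the 8 P2+14 and P2+16 libraries, although the axis label gives 12. Points are libraries, colored by number, filled for ablation and open for control. The 4 P2+15 libraries lie between those of P2+14 and P2+16 in both panels.

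Number 4 against number 5 compares the library sets at the same passage, in libraries that the passage comparison did not use. In limma with a mean for each number, 2 genes passed (0.0145%), Aldh1a3, an enzyme of retinoic acid synthesis, and Fam167a, and 1581 had an unadjusted p under 0.05. Both were lower in number 4 (log2 difference -0.53 for Aldh1a3 and -0.79 for Fam167a, adjusted p = 0.0487 for each). Of the 432 genes called between the passages, 69.0% differed between number 4 and number 5 in the direction of the passage difference, against 59.3% of all genes tested. The passage step within set 1, number 5 against numbers 1 and 3, gave 1050 called genes (7.61%), 645 higher (4.67%) and 405 lower (2.93%). Within set 2, numbers 6 and 7 against number 4 gave 43 (0.312%), 28 higher (0.203%) and 15 lower (0.109%). These comparisons share libraries with the passage comparison and rest on a single number at P2+15. Since each number had its own mean, the p-values of the steps and of number 4 against 5 leave out the spread between numbers. They measure only the spread between the dishes of a number. With passage as a trend and library set as a term in all 12 libraries, limma called 1 gene, again Camk2n1, with a change over the full range of 1.16 on the log2 scale (adjusted p = 0.0153). With the number as a block the trend gave 0 calls (389 genes with an unadjusted p under 0.05), and it also gave 0 without library 1C, 4, 4C, 5, 5C, 6C, 7 or 7C.

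Camk2n1 (ENSMUSG00000046447.3, chromosome 4 from 138454314 to 138460123 in GRCm38.p6) had 448, 394, 427 and 425 normalized counts in libraries 1, 3, 1C and 3C. It had 845, 965, 931 and 913 in libraries 6, 7, 6C and 7C, and 645 to 693 in the P2+15 libraries. The passages did not overlap, and both library sets of P2+15 fell between them. The fold change was 2.15 (log2 difference 1.11, standard error 0.0747, adjusted p = 0.00253, and 0.0162 with the number as a block). This gene was singled out after its values were seen.

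The 12 largest increases included the membrane mucin genes Muc1 and Muc20 and the receptor gene Pigr, and Muc4 was named through the goblet marker list. Muc1 (ENSMUSG00000042784.9, chromosome 3 from 89229057 to 89233381), whose promoter with the TATAAA match is shown above, had 174, 369, 316 and 396 normalized counts in libraries 1, 3, 1C and 3C. Its counts in libraries 6, 7, 6C and 7C were 1016, 854, 1101 and 752. All 4 P2+16 libraries were above all P2+14 libraries, and at P2+15 Muc1 was already at 655 to 940.1. Muc1 was 3.07-fold higher at P2+16 (log2 difference 1.62, standard error 0.243, adjusted p = 0.0204, with the block 0.0886). Muc4 (ENSMUSG00000079620.13, chromosome 16 from 32735886 to 32782391) had 836, 1195, 1058 and 1060.2 normalized counts at P2+14 and 2949, 2290.4, 2127 and 2294 at P2+16, in the same order of libraries. It was 2.33-fold higher with no overlap (log2 difference 1.22, standard error 0.131, adjusted p = 0.0125, with the block 0.0803). Muc20, a membrane mucin gene on the opposite strand that overlaps the end of Muc4, was 2.56-fold higher, with means of 103 ± 15.2 (SD, n = 4) and 269 ± 66.5. How the counting used the strand is not given in the sources used here, so reads from the shared stretch cannot be told apart. Pigr (ENSMUSG00000026417.13, chromosome 1 from 130826684 to 130852249), the receptor that carries polymeric immunoglobulins across the epithelium, had 262, 219, 262 and 259 normalized counts at P2+14. It had 822, 613, 715 and 445 at P2+16, a 2.53-fold increase (log2 difference 1.34, standard error 0.177, adjusted p = 0.0146, with the block 0.0803). Its P2+14 libraries lay close together, while library 7C was the lowest of P2+16 and library 6 the highest.

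**Figure D3:**
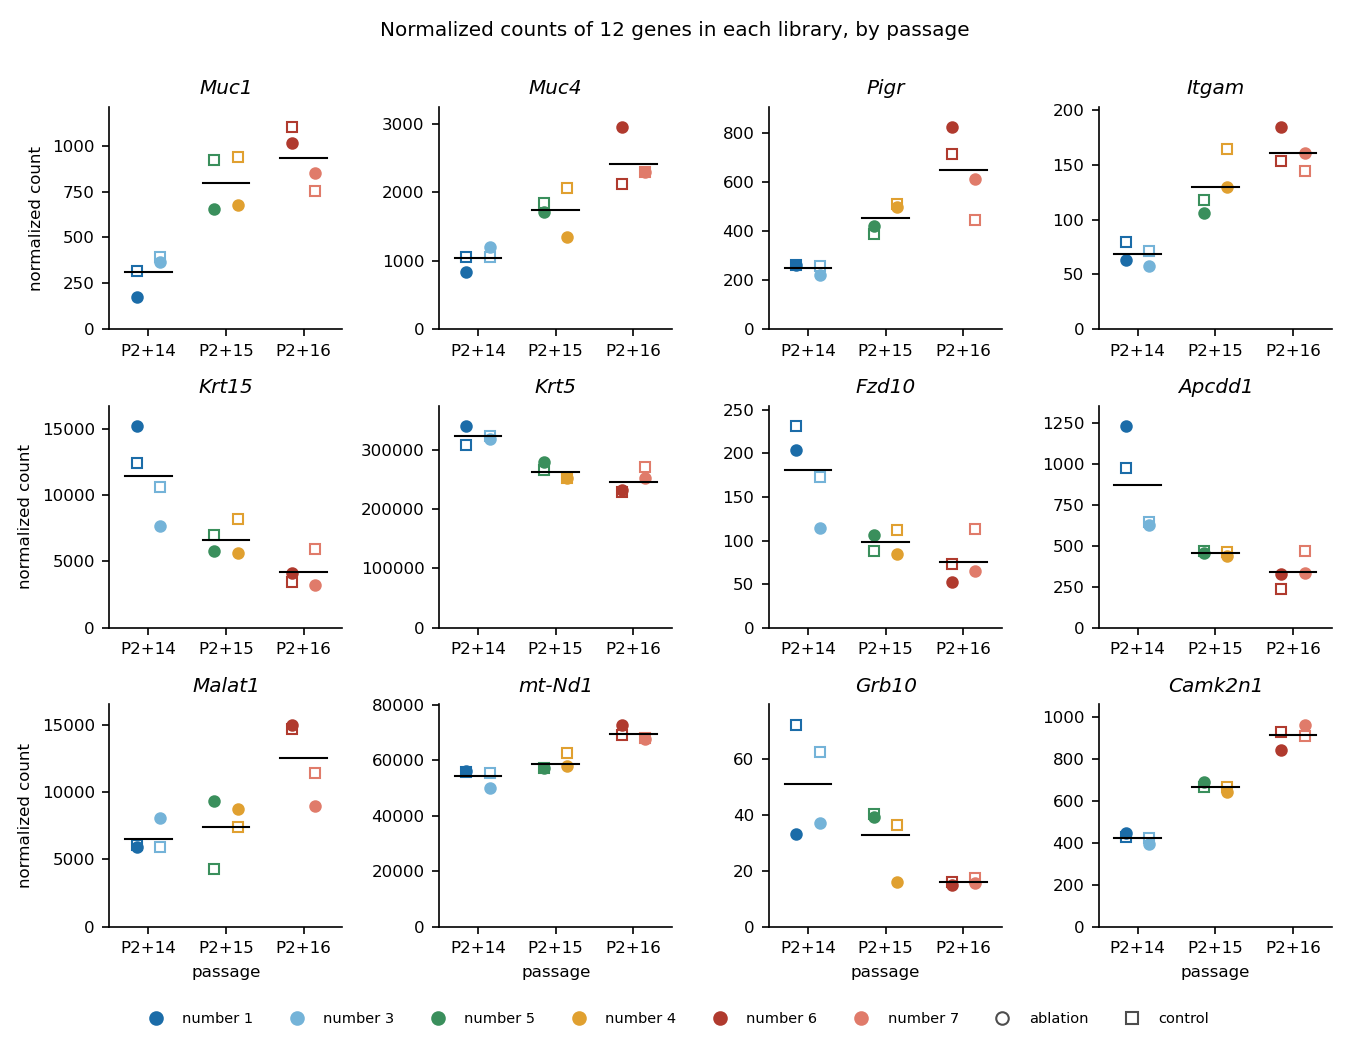
Normalized counts (y axes, from 0) of 12 genes in each library by passage (x axes). Points are colored by number, filled for ablation and open for control, and black lines are means of 4 libraries. Muc1, Muc4, Pigr, Itgam, Malat1, mt-Nd1 and Camk2n1 were higher at P2+16, and Krt15, Krt5, Fzd10, Apcdd1 and Grb10 lower, in each case without overlap between P2+14 and P2+16.

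The other genes of this group had various roles. Clca3b, of a family of secreted chloride channel regulators whose near-identical copies make read assignment uncertain, was 2.95-fold higher but varied widely, from 410.2 to 986 normalized counts at P2+14 and from 1042 to 2413 at P2+16. Sprr1b, a precursor of the cornified envelope, was 2.55-fold higher, and at P2+15 it reached 268 and 193 normalized counts in set 1 but 106 and 102 in set 2. Khdrbs2, an RNA-binding splicing regulator, was 3.20-fold higher. Slc28a3, a nucleoside transporter, was 2.88-fold, the transcription factor gene Maf 2.59-fold, Mfsd4a, a transporter-like gene, 2.54-fold and Dnm3, a dynamin GTPase gene, 2.44-fold higher. Cybb and Itgam encode the catalytic subunit of the phagocyte NADPH oxidase and the alpha chain of a myeloid integrin. Cybb was 2.43-fold higher, with means of 482 ± 94.7 and 1175 ± 262, and Itgam 2.35-fold, with means of 68.3 ± 9.69 and 161 ± 17.0 (SD, n = 4 each). Adjusted p-values of the 24 genes with the largest changes lay between 0.0125 and 0.0436, and between 0.0803 and 0.241 with the number as a block.

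Further secreted and surface genes, picked after their values were seen, were also higher. Olfm4, a secreted glycoprotein gene known from intestinal stem cells, had 13675, 17469, 12959 and 16779 normalized counts in libraries 1, 3, 1C and 3C and 39260.1, 36558, 27895 and 30313 in libraries 6, 7, 6C and 7C. It was 2.20-fold higher, the P2+15 libraries had 18668 to 26965, and the adjusted p was 0.0125 (0.0764 with the block). Ltf, encoding lactoferrin, was 1.87-fold higher with means of 21721 ± 5612 and 39534 ± 1279 (adjusted p = 0.034, with the block 0.0942). At P2+14, Ltf was lower in both dishes of number 1 (16079 and 17724) than in those of number 3 (26201 and 26879). Tmprss11g, a membrane serine protease gene, was 2.15-fold higher (adjusted p = 0.00644, with the block 0.0764).

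Among the decreases, the basal keratin gene Krt15 (ENSMUSG00000054146.8, chromosome 11 from 100131758 to 100135928) had one of the larger changes at a high level. It had 15198, 7628, 12394 and 10615 normalized counts in libraries 1, 3, 1C and 3C and 4156, 3229, 3460.0 and 5918 in libraries 6, 7, 6C and 7C. P2+15 lay between, with 5606 to 8222. Krt15 was 2.73-fold lower (log2 difference -1.45, standard error 0.235, adjusted p = 0.0238, with the block 0.126). Krt5 fell by far less, from 322401 ± 13154 to 245865 ± 19268 normalized counts (SD, n = 4), 1.31-fold, without overlap (adjusted p = 0.0278, with the block 0.126). The other main basal genes did not pass. Krt14 had means of 245343 and 231787 (log2 difference -0.08, standard error 0.0763) and Trp63 means of 9718 and 8433 (-0.21, standard error 0.0710, adjusted p = 0.137). Krt8, a keratin gene of luminal cells, had means of 24247 and 25272 (log2 difference 0.05, standard error 0.0872), and Krt13, a hillock keratin gene, of 34828 and 27549.9 (-0.33, standard error 0.210). Vim, an intermediate filament gene of mesenchymal cells, had means of 279 and 322 (0.26, standard error 0.381). In bulk samples, fewer cells of a type and less RNA per cell cannot be told apart.

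Members of the Wnt pathway were also among the 12 largest decreases. Fzd10 (ENSMUSG00000081683.5, chromosome 5 from 128600844 to 128604093), a Wnt receptor gene with the GC-rich promoter shown above, had 204, 115, 232 and 173 normalized counts at P2+14 and 52.3, 65.2, 73.1 and 113 at P2+16. It was 2.38-fold lower (log2 difference -1.25, standard error 0.225, adjusted p = 0.031, with the block 0.114), and the gap between library 3 and library 7C was narrow. Apcdd1, a membrane-bound inhibitor of Wnt signaling, fell 2.52-fold, from 869.6 ± 287 to 341 ± 97.6 normalized counts. Of 14 Wnt genes tested, Fzd10 was the only one called, while 1.12% of all genes tested were called lower. Among the 14, 11 were below 0. The median log2 difference of the 14 was -0.18 (-0.36 without both dishes of number 3), against -0.0029 over all genes tested. Axin2, a feedback target of the pathway chosen after its values were seen, had 112 to 139 normalized counts at P2+14 and 56.3 to 102 at P2+16, and its adjusted p was 0.136.

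The remaining decreases concerned signaling, chromatin and cytoskeleton genes. Arhgap29, a GTPase activating protein gene, was 3.61-fold lower, with 155 to 238 normalized counts at P2+14 and 18.8 to 77.0 at P2+16. H2afy2, encoding a macroH2A histone, was 2.33-fold lower, and Klhl23, of the Kelch-like family, 2.32-fold. Both were already at or near the P2+16 level at P2+15. Bcat1, the cytosolic branched-chain aminotransferase gene, was 2.30-fold, Med12l, a relative of a Mediator subunit, 2.23-fold, and Mapre2, a microtubule end-binding gene, 2.05-fold lower. Ica1, first known as an islet autoantigen gene, was 1.99-fold, the ErbB ligand gene Nrg2 1.98-fold, and Snrpn, an imprinted gene for a spliceosome protein, 1.93-fold lower.

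Most lists of cell type markers had 0 to 2 calls and none had a call with the number as a block. Among all genes tested, 2.01% were called higher and 1.12% lower, and 2964 of 13804 had an unadjusted p under 0.05. Of 16 basal markers, Krt15 and Krt5 were called lower, 11 were below 0 and the median was -0.12 (-0.19 without both dishes of number 7). Of 10 club and secretory markers tested, Scgb3a1, a secretoglobin gene, was called higher, with 48.7 ± 10.4 and 106 ± 13.8 normalized counts (2.17-fold). Cyp2f2, a club cell cytochrome gene, was not called. It had 78596 and 66645 normalized counts in the dishes of number 1, 26191 and 31286 in those of number 3 and 41439 to 57749.8 at P2+16, so it differed more between the numbers of P2+14 than between passages. Of 7 goblet markers tested, Muc4 was called and the median was 0.51 (0.28 without both dishes of number 3, 0.33 without library 3C). The goblet list summed to 5174 to 7330.4 normalized counts at P2+14 and to 7548 to 8554 at P2+16, without overlap. Muc4 alone had 836 to 1195 of these at P2+14 and 2127 to 2949 at P2+16. The sums of the basal and the tuft lists did not overlap between passages either. In the basal sum, Krt5 alone had means of 322401 at P2+14 and 245865 at P2+16, and the part of Sox9 in the tuft sum is given below. Within the goblet list, Muc5b, a gel-forming mucin gene, had means of 15.4 and 12.9. Of 7 multiciliated markers tested, limma called 0, 2 had an unadjusted p under 0.05, and their median was 0.10. Of 23 hillock and squamous genes, Sprr1b and the cornified envelope gene Ivl were called higher (Ivl 1.70-fold), Cnfn, another cornified envelope gene, lower (2.38-fold), and the median was 0.11. Of 4 tuft markers tested Sox9 was called, the median was 0.38, and their list summed to 872 to 1445 normalized counts at P2+14 and to 1655 to 1890.5 at P2+16. Sox9 alone had 627 to 968 of these at P2+14 and 1300 to 1508 at P2+16. Of the 10 tuft genes, 6 had a mean under 10 normalized counts. Of 3 ionocyte, 3 alveolar type II and 7 alveolar type I markers tested limma called 0 (0, 0 and 2 with an unadjusted p under 0.05), with medians of -0.17, 0.09 and 0.13.

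**Figure D4:**
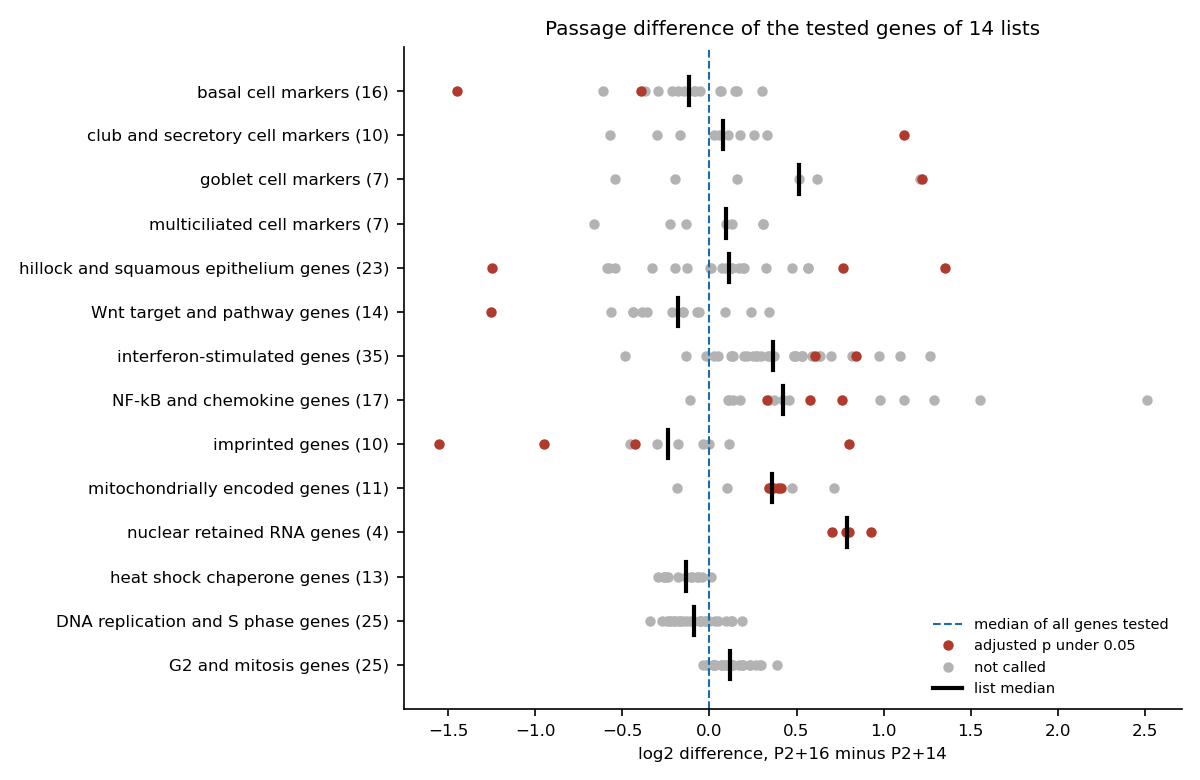
Log2 difference P2+16 minus P2+14 (x axis) of the tested genes of 14 lists (rows, number tested in brackets). Red points passed an adjusted p under 0.05, grey points did not, black bars are list medians and the dashed line is the median of all genes tested. The medians of the nuclear retained RNAs (0.79), the NF-kB genes (0.42), the interferon-stimulated genes (0.36) and the mitochondrial genes (0.36) lie to the right of the line.

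Markers of cells foreign to the epithelium were scarce in both passages. Of 11 immune markers, 4 were tested and 8 had any count, and C1qa, Adgre1 and Tyrobp were at 0 in all 8 libraries. The immune list summed to 215 to 242 normalized counts at P2+14 and to 306 to 380 at P2+16. Itgam was its only called member, while Ptprc, the common leukocyte gene, had means of 12.4 and 14.6 (log2 difference 0.11, standard error 0.363) and Cd68 means of 106 and 133. The part of such cells in the rise of Itgam and Cybb was not tested. Of 15 fibroblast markers 3 were tested and limma called 0 (0 with an unadjusted p under 0.05), and of 8 endothelial markers 0 reached the minimum for testing. The fibroblast genes Col1a1 and Col3a1 had means of 8.13 and 0.49 at P2+14 and of 7.70 and 0.25 at P2+16. Neuroendocrine markers were all below the minimum.

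All 4 RNAs tested that are kept in the nucleus were called higher, against 2.01% of all genes tested, with a median of 0.79, and 0 of them passed with the number as a block. Malat1, an abundant nuclear RNA, had 5894, 8113, 6093 and 5937 normalized counts in libraries 1, 3, 1C and 3C and 15033, 8993, 14716 and 11427 in libraries 6, 7, 6C and 7C (1.90-fold, adjusted p = 0.0356, with the block 0.146). At P2+15 it ranged from 4280.1 in library 5C to 9362 in library 5, so the dishes of a number could differ as much as the passages. Neat1, the scaffold of paraspeckles, rose 1.72-fold from 13155 ± 3524 to 22164 ± 2738 (with the block, adjusted p = 0.125). Kcnq1ot1, an imprinted antisense RNA within Kcnq1, rose 1.74-fold (with the block, adjusted p = 0.17), and Xist, which coats the inactive X chromosome, 1.63-fold from 19922 ± 3199 to 32480.5 ± 5092 (with the block, adjusted p = 0.13). The Y chromosome genes Ddx3y, Uty, Kdm5d and Eif2s3y were listed at 0 in all 12 libraries, while Xist had 14806 to 37365 normalized counts. This is the pattern of female cells. Genes annotated as noncoding made up 10.8% of the genes called higher, 0% of those called lower and 7.17% of all tested. Of 11 mitochondrially encoded genes tested, 6 were called higher, against 2.01% of all genes tested, 0 lower, and their median was 0.36. With the number as a block 0 of the 6 passed (adjusted p = 0.0952 to 0.154). An example is mt-Nd1, a subunit of respiratory complex I, with 54441 ± 2838 and 69449 ± 2436 normalized counts (1.28-fold, adjusted p = 0.0238, with the block 0.126). Mitochondrial genes took 1.29% to 1.44% of the summed normalized counts at P2+14 and 1.67% to 1.79% at P2+16. The part of RNA quality in these differences was not tested.

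Defence genes were mostly above 0. Of all 13804 genes tested, 6804 were above 0 and 2964 had an unadjusted p under 0.05. Of 35 interferon-stimulated genes tested, 32 were above 0 and 10 had an unadjusted p under 0.05. Their median was 0.36, and it was 0.14 without both dishes of number 1, 0.19 without those of number 7 and 0.68 without those of number 3. Called higher, as were 2.01% of all genes tested, were Gbp2, a guanylate-binding protein gene (1.79-fold), and B2m, the light chain of MHC class I (1.52-fold), and neither passed with the block (adjusted p = 0.232 and 0.126). B2m had 3961 to 4305 normalized counts at P2+14, 5139 and 5334 in the dishes of number 6, and 7460.0 and 7359 in those of number 7. The list median per library ranged from -0.53 to 0.13 at P2+14 and from -0.03 to 0.54 at P2+16, so the passages overlapped. Of 17 NF-kB and chemokine genes, 16 were above 0 and 10 had an unadjusted p under 0.05. Their median was 0.42, and 0.28 without both dishes of number 1. Called higher, against 2.01% of all genes tested, were the mucosal chemokine gene Cxcl17, the apoptosis inhibitor gene Birc3 and the alarmin gene Il33. Cxcl17 had 549 to 718 normalized counts at P2+14, 567 to 821 at P2+15 and 1042 to 1084 at P2+16 (1.69-fold, adjusted p = 0.0125, with the block 0.0803). Birc3 rose 1.49-fold and Il33 1.26-fold (with the block, adjusted p = 0.0803 and 0.167).

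Proliferation and senescence genes gave little, beside 2.01% called higher and 1.12% called lower among all genes tested. Of all 13804 genes, 2964 had an unadjusted p under 0.05. Of 25 S phase and 25 G2 and mitosis genes, limma called 0 (1 and 0 with an unadjusted p under 0.05), with medians of -0.09 and 0.12. Both medians changed sign with the numbers compared. The G2 and mitosis median was -0.19 without the dishes of number 1 and 0.47 without those of number 3, and the S phase median -0.39 and 0.20. Mki67, a marker of cycling cells, had 21536 and 21634 normalized counts in the dishes of number 6 but 14077 and 13299 in those of number 7, and 11175 to 15653 at P2+14. Of 24 p53 target and senescence genes, Cdkn2b, an inhibitor of CDK4 and CDK6, was called, from 1322 ± 104 to 1797 ± 185 normalized counts (1.36-fold). Its neighbor Cdkn2a had means of 145 and 138 and the p53 target Cdkn1a means of 4699 and 5030.0, and neither was called.

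Pathway lists contributed single genes, beside 2.01% called higher and 1.12% called lower among all genes tested. An unadjusted p under 0.05 was found for 2964 of all 13804 genes. In the Notch list (11 tested) the ligand gene Jag1 rose 1.62-fold, and in the TGF-beta and BMP list (21 tested) the ligand gene Bmp7 and the activin antagonist gene Fst fell 1.46-fold and 1.62-fold. Jag1 had 8820.2 to 11036 normalized counts at P2+15, overlapping the 7808 to 10408 of P2+16. Of the EGFR ligand and ERK feedback genes, the phosphatase gene Dusp4 rose 2.05-fold, and of the matrix protease genes Plat, the tissue plasminogen activator gene, 2.22-fold. Ndrg1, a gene induced by hypoxia, rose 1.55-fold, the clock repressor gene Bhlhe40 1.36-fold and the chaperone gene Dnajb9 1.27-fold. Lower were Gpx2, a glutathione peroxidase gene of the NRF2 list (1.28-fold), Hmgcs1 of cholesterol synthesis (1.33-fold) and the fatty acid transporter gene Cd36 (1.89-fold). Hmgcs1 and Bhlhe40 were the called genes among those named whose passages overlapped. In 12 YAP and TEAD target genes and 17 AP-1 and immediate early genes tested, limma called 0 (5 and 3 with an unadjusted p under 0.05), with medians of 0.01 and 0.14. Medians of the lists with a single call were 0.07 for the 21 EGFR ligand and ERK feedback genes, 0.28 for 14 matrix protease genes, 0.0028 for the glycolysis and hypoxia genes, 0.03 for 16 clock genes and 0.07 for 18 unfolded protein response genes. They were -0.18 for 19 NRF2 and glutathione genes, -0.17 for 24 cholesterol synthesis genes and -0.16 for 17 fatty acid synthesis and lipid droplet genes, of which 15 were below 0. Limma called 0 of 20 ATF4 and amino acid response genes, 6 AHR target genes, 24 integrin, laminin and collagen genes and 13 genes of the epithelial to mesenchymal transition, of which 2, 2, 4 and 2 had an unadjusted p under 0.05. Their medians were -0.0090, 0.13, 0.12 and 0.09. Of 13 heat shock chaperone genes 12 were below 0, with a median of -0.13, and limma called 0 (3 with an unadjusted p under 0.05).

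Imprinted and patterning genes included some of the larger decreases. Of 10 imprinted genes tested, Grb10, a growth receptor adaptor gene, Snrpn and Plagl1, a zinc finger gene, were called lower and Kcnq1ot1 higher, with a median of -0.24. Among all genes tested, 1.12% were called lower and 2.01% higher. With the number as a block 0 of the imprinted genes passed. Grb10 had 33.1, 37.0, 72.4 and 62.4 normalized counts in libraries 1, 3, 1C and 3C and 14.8, 15.6, 15.8 and 17.5 in libraries 6, 7, 6C and 7C (2.93-fold lower, adjusted p = 0.0149, with the block 0.112). At P2+14 its controls were above both ablation dishes. Snrpn had 123 to 152 normalized counts at P2+14 and 55.3 to 85.7 at P2+16. Of 22 Hox and lung patterning genes, Sox9, a transcription factor gene of the distal lung and of progenitors, rose 1.94-fold from 731 ± 162 to 1394 ± 87.3, and Foxe1, a forkhead factor gene, fell 2.45-fold from 75.9 ± 9.77 to 30.4 ± 3.91. The lung identity gene Nkx2-1 had means of 1539 and 2275 (log2 difference 0.56, standard error 0.126, adjusted p = 0.0529) and was not called. Sox9 was at 1116 to 1425 at P2+15, overlapping P2+16.

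Chromosome 10 had the lowest median of all autosomes. The median log2 difference of its 665 tested genes was -0.10, 70.7% were below 0, and 22 were called lower and 4 higher. Among all 13804 genes tested, 7000 were below 0, 1.12% were called lower and 2.01% higher. The median was -0.22 in control dishes only but 0.010 in ablation dishes only, -0.055 without library 6C and -0.15 without library 3. Medians of the other 18 autosomes lay between -0.03 and 0.06. The shift was spread along the chromosome, with medians of -0.08, -0.09, -0.13 and -0.09 in 4 consecutive stretches. It did not follow the passages library by library. Deviations of the chromosome 10 median from the mean over the 8 P2+14 and P2+16 libraries were 0.06, -0.06, 0.08 and 0.13 in libraries 1, 3, 1C and 3C. They were 0.02, -0.01, -0.18 and -0.05 in libraries 6, 7, 6C and 7C. The 4 P2+15 libraries were at -0.14 to -0.08, below the P2+16 libraries other than 6C, so they were not between the passages. H2afy2 and Plagl1, named above, lie on chromosome 10.

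**Figure D5:**
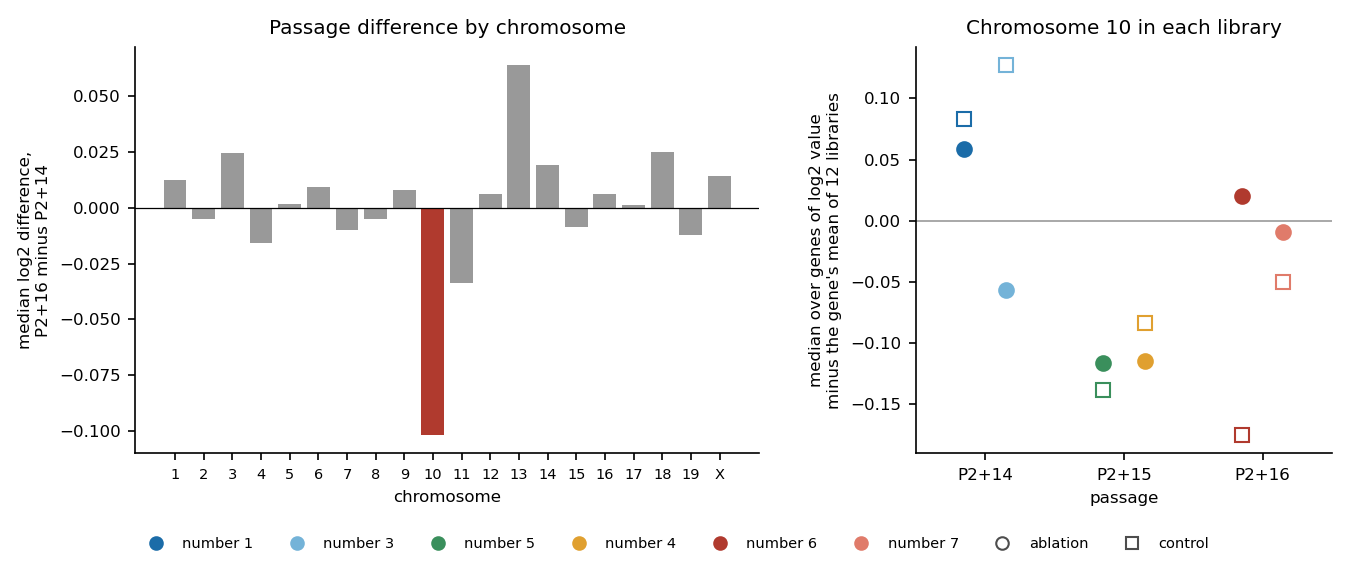
Left, median log2 difference P2+16 minus P2+14 of the tested genes of each chromosome (bars from 0), with chromosome 10 (-0.10) in red. Right, median over the 665 chromosome 10 genes of the log2 value minus the gene's mean, for each library by passage, colored by number, filled for ablation and open for control. The mean was taken over the 8 P2+14 and P2+16 libraries, although the axis label gives 12. Library 3 lies apart from the other P2+14 libraries and library 6C from the other P2+16 libraries.

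The response to ablation was compared between the passages with an interaction term. In limma 0 genes passed, 281 had an unadjusted p under 0.05, and the lowest adjusted p rounded to 1.00. With the number as a fixed block 0 passed as well and 1265 had an unadjusted p under 0.05. Ablation and control dishes therefore gave no gene whose passage difference was shown to depend on the treatment, with 2 dishes for each combination.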

How the data were processed

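RNA of all dishes was extracted together and poly(A) RNA made into stranded libraries, per the labels. The share of a sequencing run that the labels give a library is too large for all 12 to have shared a run. Which libraries shared one is not given in the sources used here, so passage and sequencing run may not be separable. The authors' DESeq2 model of ablation held batch as a secondary factor, and the paper does not list the libraries of each batch. The authors counted reads per gene with an nf-core pipeline on GRCm38.p6 and deposited normalized counts, a signal in which each count was divided by a DESeq2 size factor of its library. How the counting used the strand is not given in the sources used here. The deposited table also holds the authors' mean signal, log2 fold changes, scores (standard errors and Wald statistics) and p-values of ablation against control, which were not used. Its "other" column, gene length, was used for a median only.

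Genes with at least 10 normalized counts in 4 of the 8 libraries were tested (13804 of 55401). log2(value + 1) was fitted with limma 3.58.1 (R 4.3.3, eBayes with trend and robust), with treatment as a covariate and Benjamini-Hochberg adjustment at 0.05. Folds are on this scale, which understates changes of low genes. The fits were also run on simulated data, the outcome of which is not given here. Since the values are not counts, edgeR 4.0.16 and DESeq2 1.42.0 were run as alternatives on whole reads recovered for 7 of the 8 libraries (tolerance 0.1 of a read, library 3 left out). Number 1, 3, 6 or 7 as a random block used limma's estimated correlation of dishes (0.458). Numbers mark dishes of the same passage, day and date in the titles, and deviations of such dishes correlated with r = 0.485 at P2+14 and 0.214 at P2+16. Other alternatives concerned the pseudocount, filter, scaling, samples and single libraries.

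Named were the 12 genes with the largest change in each direction at a mean of at least 100 normalized counts, without predicted gene models and pseudogenes, up to 4 called genes of each of 41 lists with the lowest p, and 17 fixed genes. The members and lists were chosen with earlier results of these data known. Genes chosen after their values were seen are named as such. Single genes under the minimum were compared by exact permutation tests, and limits cover the spread of dishes only.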

Additional observations from a re-analysis of the deposited data

Results flagged for a closer look

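Of 136 groups of 4 libraries examined among the named genes, 9 held a library whose gap to the nearest of the others was large for the range of the group. Chance gives about 1 in 20 groups. At P2+14, library 1 was low for Khdrbs2 (27.3 normalized counts, the others 54.0 to 58.9). Library 3 was low for Pigr (219, the others 259 to 262) and mt-Nd1 (50200.0, the others 55514 to 56073), and high for Malat1 (8113, the others 5894 to 6093) and Krt8 (26466, the others 23308 to 23746). At P2+16, library 6C was low for Klhl23 (45.4, the others 78.8 to 84.1) and library 7 for mt-Nd4 (22069.6, the others 23451 to 23550.2). Library 7C was high for Gbp2 (421, the others 313 to 327) and library 6 for Neat1 (26247, the others 20489 to 21198).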

How the results depend on the processing

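The number of calls, 432, differed by less than 1.5 times under pseudocount 10 (462), no filter (548), a minimum of 50 (415), the same sum per library (520), quantile normalization (430), TMM factors (447), no treatment term (556) and edgeR (440). Of the 432 genes, 377 to 432 were called again under these settings other than edgeR, which shared 283. The edgeR and DESeq2 fits also left out library 3, without which limma shared 287. Calls fell to 1 with the number as a replicate block, 0 with number means, 241 with plain eBayes, 0 in ablation dishes only (870 with an unadjusted p under 0.05), 0 in control dishes only (1836), 1 with library set as a term, 0 without both dishes of number 6 (1539) and 1 without those of number 7. They rose to 990 with all 12 libraries, 1058 in DESeq2, 1894 without number 1 and 1447 without number 3. Leaving out 1 library gave 1 to 440. The share of higher calls was 64.4%, and 70.8% with the same sum per library. The cause of these changes was not tested.

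The share of called genes with P2+15 between was 82.6%, and 76.8% with plain eBayes, 77.8% with 12 libraries, 73.9% in edgeR, 69.4% in DESeq2, 69.4% without number 1 and 63.4% without number 3. Leaving out 1 library gave 73.4% to 89.4%. Number 4 against number 5 gave 26 calls without a filter, 0 with plain eBayes, 1 with quantile normalization and 0 to 13 without 1 library. The trend within library sets gave 0 calls with the replicate block, 5 without a filter and 0 to 5 without 1 library. The ablation response by passage gave 0 calls in each alternative run, the block included.

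Log2 differences changed sign for genes that were not called. Cyp2f2 was -0.27 in edgeR and DESeq2, -0.23 with library set as a term, -0.56 without number 3 and -0.021 without number 6. Cdkn2a was 0.093 in control dishes only, 0.036 in edgeR, 0.040 in DESeq2 and 0.055 without number 7. Krt14 was 0.24 with library set as a term, 0.0057 without number 3 and 0.0067 without number 6. Vim was -0.35 without number 1 and -0.19 without number 7, Krt8 -0.089 without number 7, Cdkn1a -0.013 without number 6 and Muc5b 0.22 in ablation dishes only. Without 1 library, Vim ranged from -0.042 to 0.52, Cyp2f2 from -0.21 to 0.42, Cdkn2a from -0.17 to 0.047, Krt8 from -0.0084 to 0.12 and Muc5b from -0.36 to 0.074. Of the 62 called genes named, Dnajb9 alone changed sign, to -0.022 with library set as a term. A passage rests on 2 numbers of the same start day, so effects of passage, start day, culture day and library set cannot be told apart.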

Other observations

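The largest changes were in genes of low counts, which the minimum for naming left out, and the genes given here were chosen after their values were seen. Rgs4, a regulator of G protein signaling, had 1.95, 0, 0.97 and 0 normalized counts in libraries 1, 3, 1C and 3C and 14.8, 31.1, 51.4 and 19.9 in libraries 6, 7, 6C and 7C (adjusted p = 0.0125 in limma, with the block 0.0803). P2+15 lay between, with 3.83 to 10.9. Tbx15, a T-box transcription factor gene, had 2.92 to 5.99 at P2+14, 9.90 to 26.3 at P2+15 and 37.4 to 103 at P2+16 (10.4-fold, adjusted p = 0.0125, with the block 0.0803).

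Fras1, a gene of an extracellular matrix protein of the basement membrane, fell 5.79-fold (adjusted p = 0.0331, with the block 0.143). It had 180 and 131 normalized counts in the dishes of number 1, 50.0 and 60.4 in those of number 3 and 7.90 to 28.6 at P2+16. Lgr5, a receptor of R-spondin, was under the minimum, with means of 6.18 and 7.40 (exact permutation p = 0.743, two-sided), and reached 29.1 and 54.4 in the ablation dishes of numbers 5 and 4 at P2+15 against 1.91 and 1.01 in their controls.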
